A study of Mus musculus with 12 samples.

Results

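The MS4A family of membrane proteins was followed through abdominal aortas of mice with intact floxed Ccn2 and of mice in which Cre was directed against it in smooth muscle cells. Its 10 genes, Ms4a1, Ms4a4a, Ms4a4b, Ms4a4c, Ms4a4d, Ms4a6b, Ms4a6c, Ms4a6d, Ms4a7 and Ms4a8a, were taken by symbol from 55092 features of the deposited table. They were selected on levels already seen in these libraries, above all on CSA against CFA, so their values in that comparison and in those that share its libraries are a description without a p-value. The labels give 12 male mice in 4 groups of 3, each mouse with 1 library. CCN2fl/fl mice carry floxed Ccn2 alleles without Cre and received saline (CFS) or angiotensin II, Ang II (CFA). CCN2SMCΔ mice are CCN2fl/fl mice with Myh11-Cre-ERT2, a tamoxifen-dependent Cre driven by a smooth muscle promoter, and received saline (CSS) or Ang II (CSA). Per the study's methods, mice were given tamoxifen on 5 days from 8 weeks of age, whether or not they carried the Cre, and rested for 2 weeks. Saline or Ang II at 500 ng/kg/min then came from mini-osmotic pumps until day 7. Cells outside that lineage keep CCN2.

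MS4A proteins cross the membrane repeatedly and sit at the cell surface or in endosomes, most of them in blood cells. The best known is CD20, the product of Ms4a1 and the target of B cell depleting antibodies, and Ms4a2 encodes the β chain of the high-affinity IgE receptor on mast cells. Several others are carried by monocytes and macrophages, where they associate with immune receptors, and a few are found in T cells. The mouse genes lie side by side in a cluster that expanded by duplication, so their names mark subfamilies of near copies.

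Levels are given as FPKM, the fragments of a transcript relative to its length and to a scaled size of the library, which allows genes to be compared within a mouse. Depth, as fragments recovered from the table, ran from 14558580 to 23107807 per library, with CSA mouse 03 the shallowest. Ccn2 itself stood at 480.1 to 1108 FPKM in CFS, 435.6 to 639.9 in CSS, 563.5 to 1105 in CFA and 254.9 to 398.6 in CSA, so transcript remained in both CCN2SMCΔ groups. CSS overlapped CFS, and CSA lay below CFA. The CSA libraries stood apart from the other 9 in smooth muscle markers. All 8 smooth muscle genes fell in CSA against CFA, with a summed level of 799.8 to 959.3 FPKM in CSA against 5532 to 8420 in CFA. In bulk tissue, fewer cells of a type and less RNA per cell cannot be told apart, and the same holds for more cells and more RNA per cell.

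Across the family, 9 of 10 genes were higher in every CSA mouse than in any of the other 9 mice, where 19.4% of all 14676 tested genes were. The exception was Ms4a1. In CSA against CFA alone, the same 9 members did not overlap, CSA being higher, as were 23.4% of all tested genes. Of the 9 members that passed the filter on low levels, at least 1 FPKM in at least 3 libraries, 8 exceeded the limits used for a call in CSA against CFA (an adjusted p under 0.05 in limma and a log2 fold change over 1.5). Those limits called 8.95% of all tested genes higher and 8.27% lower. The members' log2 fold changes ran from 1.15 to 6.90 with a median of 4.09, and the median over all tested genes was -0.04. Ms4a4b passed the filter through the CSA libraries alone, and Ms4a4c and Ms4a8a through CSA and CFA mouse 72, so the filter itself favoured a higher level in CSA for these 3.

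**Figure D1:**
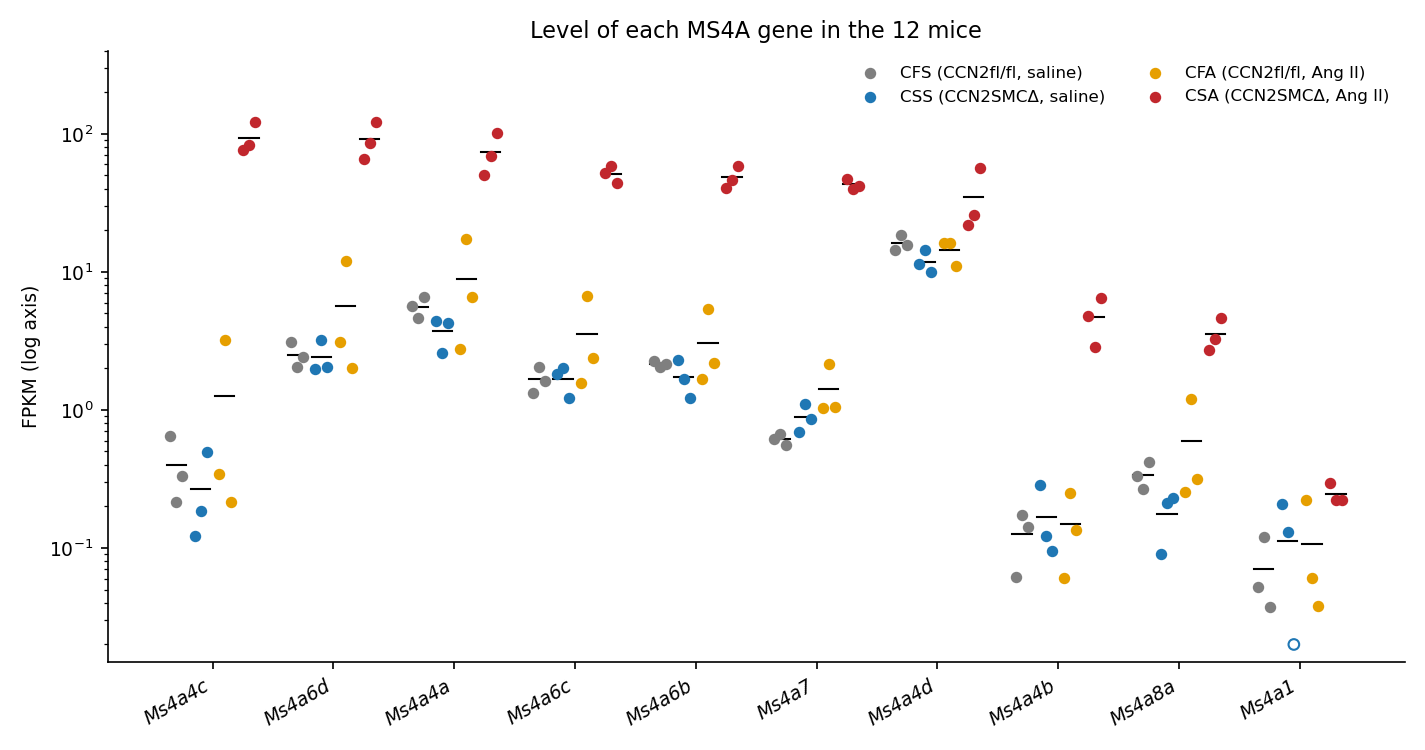
FPKM of the 10 MS4A genes on a log axis, with a point for each mouse and a bar at the mean of each group of 3; the open circle is a value of 0, drawn at the foot of the axis. The CSA points lie above the other 9 mice for every gene but Ms4a1, and Ms4a4d is the gene with the highest level outside CSA.

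The widest difference was that of Ms4a4c, an interferon-inducible member carried by monocytes. Its levels were 76.7, 82.7 and 123 FPKM in CSA mice 01, 02 and 03, against 0.341, 3.20 and 0.216 in CFA mice 71, 72 and 74. Saline mice held 0.649, 0.214 and 0.331 FPKM in CFS and 0.123, 0.185 and 0.499 in CSS. The gene was thus near the floor in 8 of the 9 other mice and among the most abundant of the family in CSA. These values rest on 2726 to 3289 fragments per CSA mouse and on 4 to 21 fragments in all others but CFA mouse 72, which had 119. The log2 fold change of CSA against CFA was 6.90 ± 0.76 (SE, n = 3 mice per group), which ranked Ms4a4c 4 of 14676 tested genes. Without CFA mouse 72 it was 7.95 and without CFA mouse 74 it was 6.25. With a pseudocount of 1 it was 5.61.

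Its near copies behaved unequally. Ms4a4b, which modulates T cell responses, reached 4.81, 2.85 and 6.47 FPKM in the CSA mice. In CFA it stood at 0.0609, 0.2502 and 0.134 FPKM, in CFS at 0.0615, 0.172 and 0.143 and in CSS at 0.286, 0.123 and 0.0959. All 3 CSA mice were above the rest, but at a level far under that of Ms4a4c, and the log2 fold change of CSA against CFA was 4.27 ± 0.48 (SE). With a pseudocount of 1 in place of 0.1 it was 2.27, and 5.06 with voom on recovered fragments. The length behind its FPKM did not match the annotation, so its level against other genes is uncertain, and so is its fold change on the scale of FPKM + 0.1. Ms4a4d lay at the other end. It was at 14.5, 18.6 and 15.7 FPKM in CFS, 11.3, 14.4 and 9.96 in CSS, 16.2, 16.2 and 11.1 in CFA and 22.0, 26.02 and 56.6 in CSA. It was therefore the most abundant member in every mouse of CFS and CSS and the least changed of the tested members, with a log2 fold change of 1.15 ± 0.31 (SE), under the limit of 1.5. CSA mouse 03 carried much of that change, and without it the log2 fold change was 0.74.

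The coding sequences show how close these genes are. Over aligned coding bases, Ms4a4b and Ms4a4c were 91.8% identical, Ms4a4c and Ms4a4d 87.9% and Ms4a4b and Ms4a4d 85.7%. The log2 fold changes of this trio in CSA against CFA were 4.27, 6.90 and 1.15. Stretches of 100 bases that a read could not tell apart were few: 29 of the 1747 stretches in Ms4a4c transcripts also occur in Ms4a4b, 1.66% of the total, and none is shared by either with Ms4a4d. Fragments of Ms4a4c counted for Ms4a4b through those stretches were not tested for.

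Ms4a4a, known from macrophages and mast cells and in humans a partner of the receptors Dectin-1 and TREM2, was at 50.7, 69.4 and 102 FPKM in CSA. CFA mice held 2.75, 17.2 and 6.55 FPKM, CFS mice 5.63, 4.60 and 6.59 and CSS mice 4.44, 2.58 and 4.23. The CSA mice lay above all others, and CFA mouse 72 was the highest of those. The log2 fold change was 3.37 ± 0.53 (SE), with 4.03 when CFA mouse 72 was left out and 2.73 when CFA mouse 71 was.

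Each gene of the Ms4a6 subfamily, found in T cells, monocytes and macrophages, was higher in CSA than in the other groups. Ms4a6d, linked to macrophage activation, was at 65.3, 86.2 and 122 FPKM in CSA and at 3.12, 11.9 and 2.01 in CFA, with 1.98 to 3.20 FPKM over the 6 saline mice. Ms4a6b was at 40.4, 46.2 and 58.8 FPKM in CSA and 1.68, 5.37 and 2.19 in CFA, with 1.22 to 2.29 over the saline mice. Ms4a6c was at 51.7, 58.8 and 44.2 FPKM in CSA and 1.57, 6.73 and 2.37 in CFA, with 1.21 to 2.06 over the saline mice. For each of the trio, CSA did not overlap the other groups and CFA mouse 72 was the highest mouse outside CSA. The log2 fold changes of CSA against CFA were 4.35 ± 0.52 for Ms4a6d, 4.09 ± 0.36 for Ms4a6b and 4.08 ± 0.42 for Ms4a6c (SE), so they differed from each other by less than their errors. Without CFA mouse 72 that of Ms4a6d was 5.08. Ms4a6c shares 53.1% of its exonic bases with BE692007, a transcript on the opposite strand and the library protocol names no step that marks strand. For BE692007 CSA exceeded CFA by 3.33 on the log2 scale, and the gene met the filter on low levels only with the CSA libraries, so the filter favoured a higher level there. Without strand, fragments of this pair cannot be told apart, and the level of Ms4a6c is uncertain to that extent. Coding identity was 86.3% between Ms4a6b and Ms4a6c, 81.8% between Ms4a6b and Ms4a6d and 79.7% between Ms4a6c and Ms4a6d, with no shared stretch of 100 bases.

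Ms4a7, a gene of macrophages, had the smallest spread in CSA relative to its mean, with 46.9, 40.0 and 42.2 FPKM. Outside CSA it was at 0.620, 0.672 and 0.560 FPKM in CFS, 0.689, 1.10 and 0.867 in CSS and 1.04, 2.15 and 1.05 in CFA. The groups followed each other without overlap from CFS to CSS and from CFA to CSA, while CSS and CFA overlapped. The log2 fold change of CSA against CFA was 4.91 ± 0.26 (SE), the smallest error among the members. Ms4a8a, described in alternatively activated macrophages, remained a minor member with 2.72, 3.26 and 4.65 FPKM in CSA and 0.256, 1.21 and 0.315 in CFA. The saline mice held 0.332, 0.268 and 0.420 FPKM in CFS and 0.0899, 0.210 and 0.230 in CSS. Its log2 fold change of CSA against CFA was 2.62 ± 0.49 (SE), the lowest among the 8 members past the limits, 3.21 without CFA mouse 72 and 1.54 with a pseudocount of 1.

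Ms4a1, which encodes CD20, did not follow the others. It was listed at 0.295, 0.221 and 0.221 FPKM in CSA and 0.223, 0.0609 and 0.0381 in CFA, with 0.0525, 0.121 and 0.0375 in CFS and 0.209, 0.131 and 0 in CSS. CSA and CFA overlapped narrowly, and no library reached 1 FPKM, so the gene was not tested. The values stand on 21 to 37 fragments per CSA mouse and 0 to 30 in the others, and a 0 allows up to 3 fragments. Other B cell genes gave a mixed picture. Of 14 B cell markers 5 were tested, and 3 of these met the filter only with the CSA libraries, which favoured a higher level there. Those 3 were Cd79b (2.44), Cd22 (2.77) and Cd79a (0.03), the last of them listed at 0 in CSA mouse 03. Of the 2 others 1 rose in CSA against CFA, Ighm, the IgM heavy chain. Its log2 fold change of 1.515 was barely over the limit of 1.5. A further 9 markers of the list were too low to be tested. Pax5, a transcription factor that defines B cells, stayed low, at 0.0393 to 0.267 FPKM over the 12 mice.

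**Figure D2:**
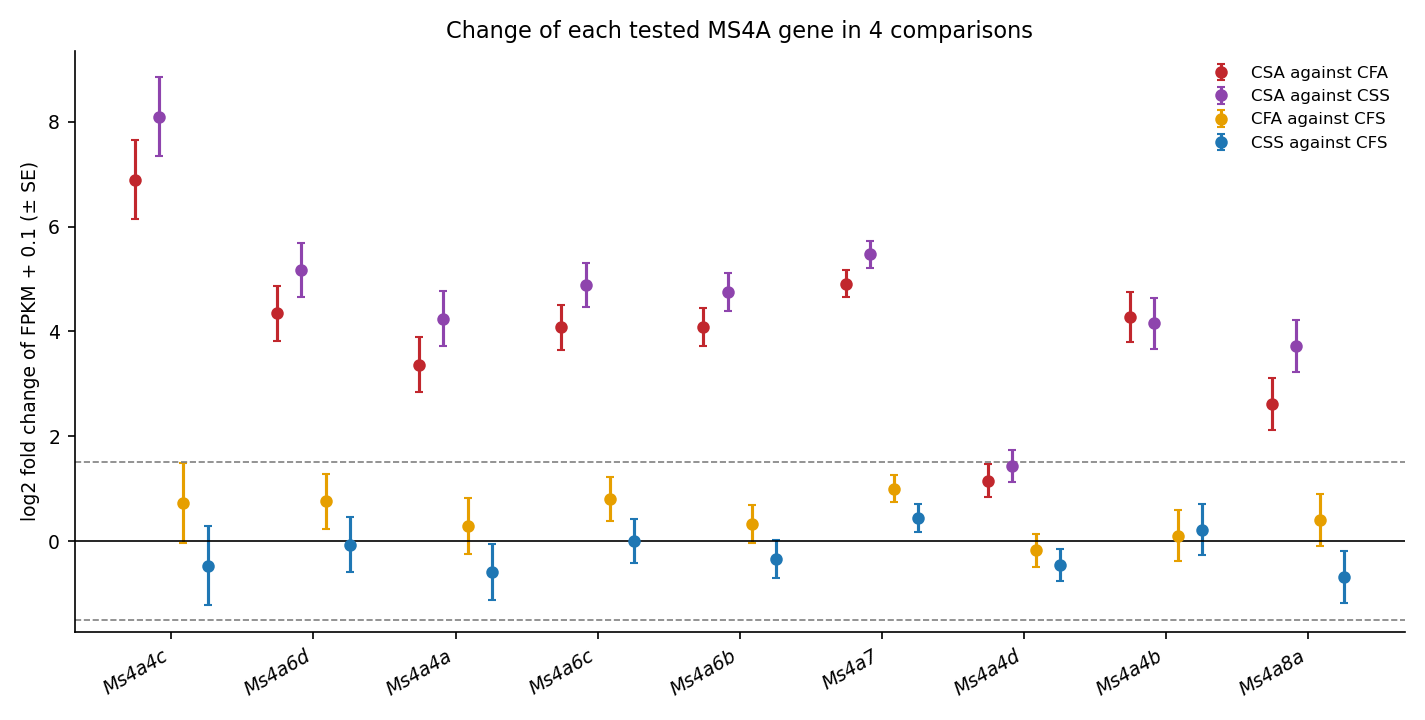
Log2 fold change of FPKM + 0.1 with its SE (limma, 3 mice per group) for the 9 tested MS4A genes in 4 comparisons; dashed lines mark the limit of 1.5 in each direction. The comparisons with CSA lie between 1.15 and 8.10, and those without CSA between -0.69 and 1.002.

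Promoters are shown for the members with a match, for Ms4a4c, which differed most, and so include Ms4a4d, which differed least. Windows are the 250 bases before the transcript start in RefSeq (GRCm38.p6), which held 8 of the 10 members. The motifs searched on both strands were GAGGAAGT for PU.1, GAAANNGAA for interferon regulatory factors and TTGCNNAA for C/EBP. The following are written 5′ to 3′ on the strand of the gene, with any match in capitals. They lie at chr19:11407411-11407660 (Ms4a4c, plus strand), chr19:11518309-11518558 (Ms4a6b, plus), chr19:11469118-11469367 (Ms4a6c, plus), chr19:11336147-11336396 (Ms4a7, minus) and chr19:11536544-11536793 (Ms4a4d, plus).
Ms4a4c: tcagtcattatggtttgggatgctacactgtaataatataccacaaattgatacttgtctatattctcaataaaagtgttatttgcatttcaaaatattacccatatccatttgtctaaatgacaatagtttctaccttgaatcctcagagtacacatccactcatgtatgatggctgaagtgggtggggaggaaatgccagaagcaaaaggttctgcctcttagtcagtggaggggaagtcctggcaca
Ms4a6b: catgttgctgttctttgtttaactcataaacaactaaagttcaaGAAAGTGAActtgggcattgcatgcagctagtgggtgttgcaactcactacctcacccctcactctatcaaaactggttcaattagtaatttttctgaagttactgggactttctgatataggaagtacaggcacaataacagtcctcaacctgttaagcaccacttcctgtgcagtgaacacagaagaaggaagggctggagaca
Ms4a6c: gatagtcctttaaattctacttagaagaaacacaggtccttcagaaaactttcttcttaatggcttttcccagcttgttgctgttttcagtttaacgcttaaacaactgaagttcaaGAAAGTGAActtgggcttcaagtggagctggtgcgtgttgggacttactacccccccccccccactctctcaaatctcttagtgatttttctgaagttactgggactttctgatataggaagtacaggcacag
Ms4a7: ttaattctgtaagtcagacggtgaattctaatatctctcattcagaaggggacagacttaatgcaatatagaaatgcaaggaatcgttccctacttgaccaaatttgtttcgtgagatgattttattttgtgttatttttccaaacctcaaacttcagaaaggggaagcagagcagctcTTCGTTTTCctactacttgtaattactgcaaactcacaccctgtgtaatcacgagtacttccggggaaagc
Ms4a4d: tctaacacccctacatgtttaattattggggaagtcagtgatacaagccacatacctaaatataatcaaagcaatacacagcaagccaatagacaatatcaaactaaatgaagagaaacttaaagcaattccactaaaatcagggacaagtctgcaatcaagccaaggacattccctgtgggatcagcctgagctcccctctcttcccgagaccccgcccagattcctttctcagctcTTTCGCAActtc
The interferon motif was present in Ms4a6b from base -206 to -198 and in Ms4a6c from -133 to -125, with the same letters GAAAGTGAA, counting -1 as the base before the start. Ms4a7 held it in both of its annotated windows, at -71 to -63 of the window shown, on the opposite strand. The C/EBP motif matched only Ms4a4d among the members, at -12 to -5 on the opposite strand, and the PU.1 motif matched none of the 9 member windows. The windows of Ms4a4a, Ms4a4b and Ms4a8a, not shown, held none of the motifs. Of all 32851 promoter windows of that length, 7.13% held the interferon motif, 9.56% the C/EBP motif and 2.44% the PU.1 motif. A match describes letters and is not a site of binding. Ms4a4c, with the largest difference, held none of the 3 motifs in its window, and its start in RefSeq differs from that in GENCODE. The start of Ms4a6b differs too, its window ending at 11518558 and its GENCODE gene starting at 11516512. The position of its motif therefore holds for the RefSeq start only.

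Along the chromosome the family forms 1 cluster. In GENCODE M21 (GRCm38), 19 Ms4a genes, 10 of them the members, span chr19:10962293-11640851, or 678.6 kb. The span holds 35 genes, 22 of them protein-coding. Members from Ms4a7 to Ms4a6d, 69.9 to 338.6 kb from the start of Ms4a1, had log2 fold changes of 1.15 to 6.90. Neighbours differed: Ms4a4d, the least changed, starts 270.6 kb from Ms4a1, and the member before it, Ms4a6b at 250.3 kb, had 4.09. Among genes named Ms4a outside the 10 members, only Ms4a14 passed the filter. It was at 9.37, 6.29 and 25.9 FPKM in CSA, 0.519, 0.649 and 0.650 in CFA, 0.506, 0.171 and 0.285 in CFS and 0.252, 0.438 and 0.362 in CSS. The CSA mice lay above the rest and CSA mouse 03 was 3.31 times the mean of the other CSA mice. Ms4a14 reached 1 FPKM in the CSA libraries alone, so a difference was built into its being tested. Its log2 fold change of CSA against CFA was 4.05 ± 0.48 (SE), and 2.98 with a pseudocount of 1. Ms4a3, known from granulocyte and monocyte progenitors, had 12 fragments each in CSA mice 01 and 02 and 0 in every other mouse. Ms4a2 had 0 to 9 fragments per mouse in all groups. Ms4a12 was at 0.659 FPKM in CSA mouse 03 and 0 in the other 11 mice. Ms4a5 and Ms4a13 were at 0 in all mice, and Ms4a10, Ms4a15 and Ms4a18 had at most 2 fragments in any. The noncoding gene AW112010, in the same span, rose by 2.91 on the log2 scale (adjusted p = 5.88e-05, limma).

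**Figure D3:**
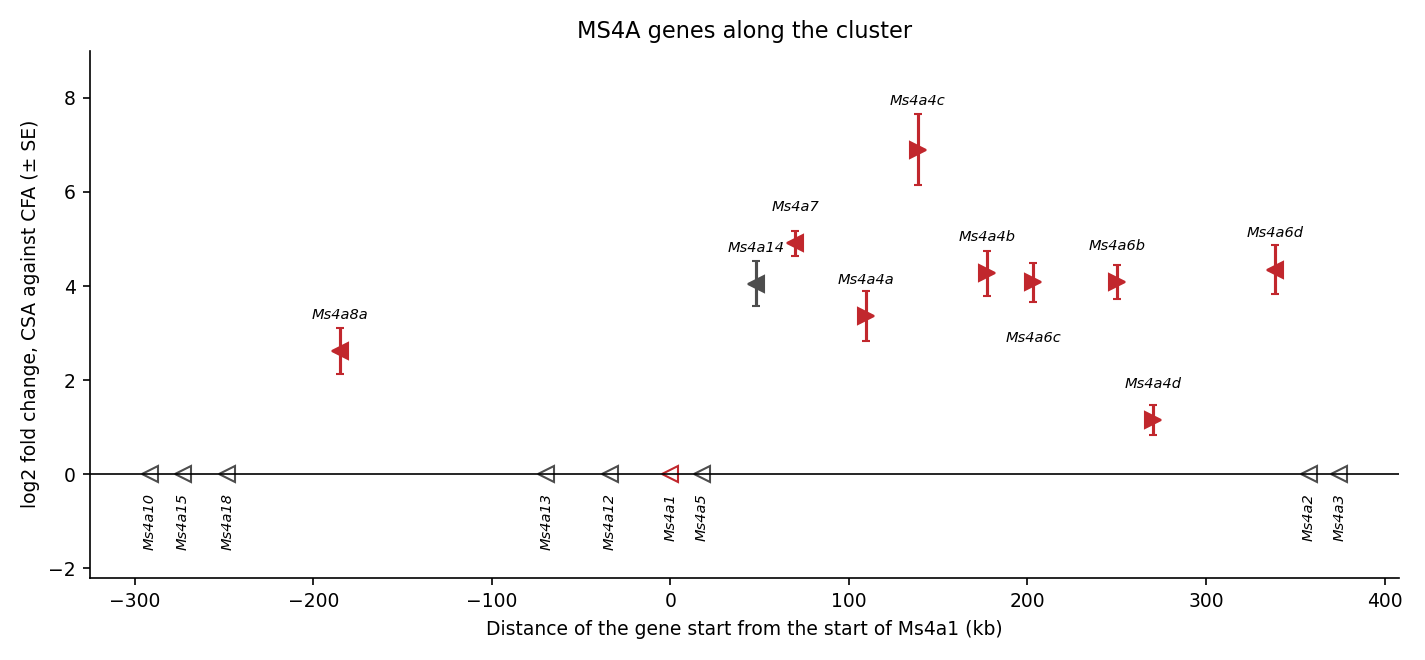
Log2 fold change (± SE) of CSA against CFA for Ms4a genes by distance of their start from that of Ms4a1, in kb; triangles point along the strand, red marks the 10 members and open triangles, drawn at 0, are genes that were not tested. Tested genes lie between 1.15 (Ms4a4d) and 6.90 (Ms4a4c).

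The summed level of the 10 genes was 28.5 to 30.8 FPKM in CFS, 20.4 to 25.6 in CSS, 25.97 to 64.4 in CFA and 362 to 560 in CSA. The makeup of that sum also differed. Ms4a4d made up 25.2% to 60.4% of it in the 9 mice outside CSA and 6.10% to 10.1% in CSA. Ms4a4c went the other way, with 0.528% to 4.975% outside CSA and 19.9% to 21.9% in CSA. Shares of Ms4a7 were 1.87% to 4.31% outside CSA and 7.54% to 13.0% in CSA, also without overlap. Ms4a4a, by contrast, kept 14.01% to 18.1% of the sum in CSA, inside its range of 10.1% to 26.8% elsewhere. CFA mouse 72 had the lowest share of Ms4a4d outside CSA, 25.2%, and a share of Ms4a6d inside the CSA range, 18.5%.

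**Figure D4:**
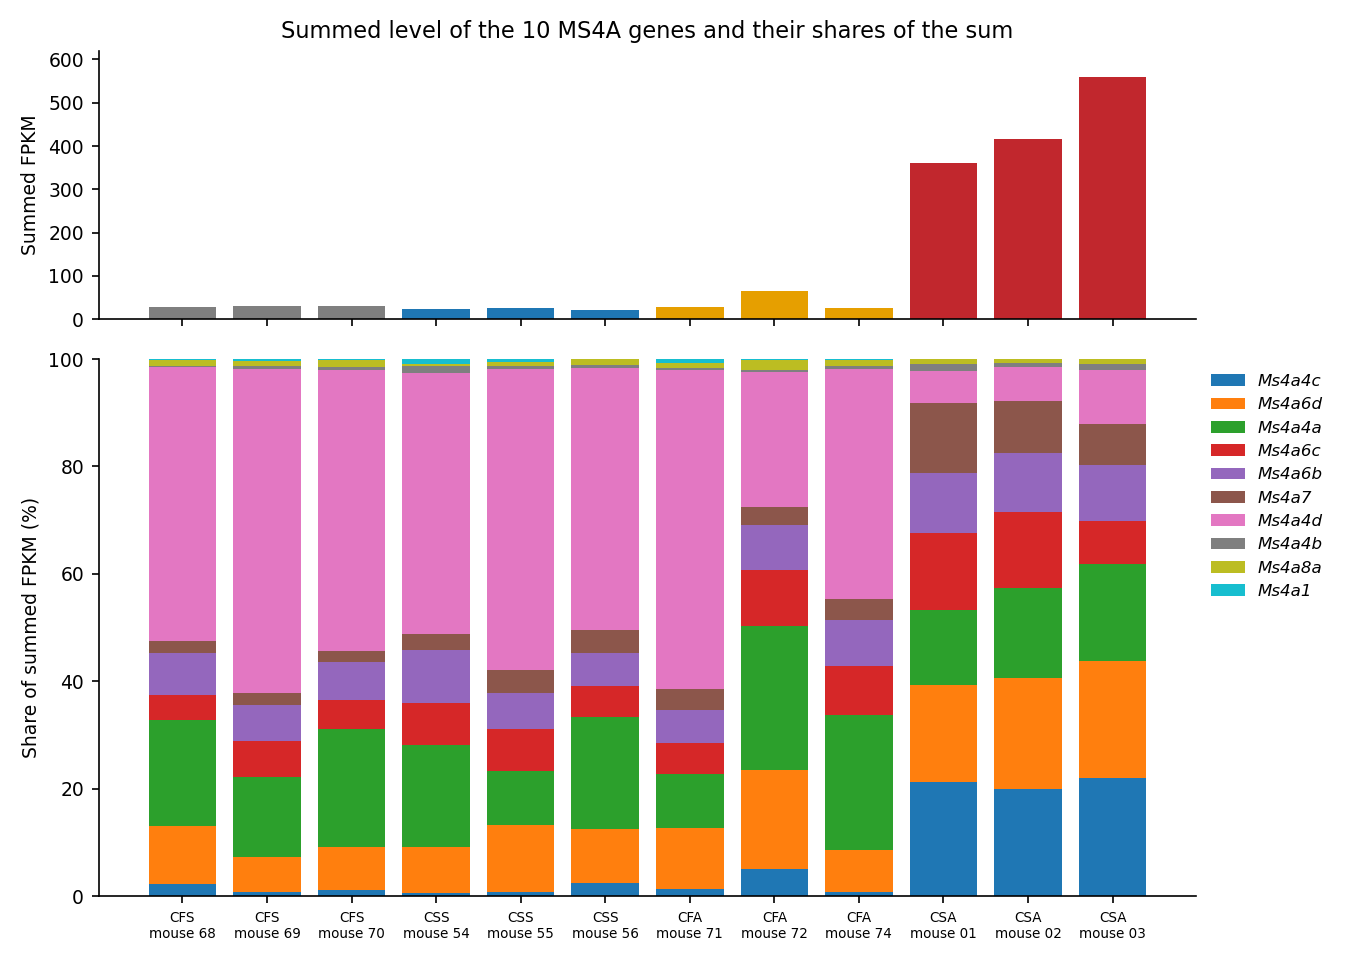
Summed FPKM of the 10 MS4A genes in each mouse (upper bars) and the share of each gene in that sum in percent (lower bars). Ms4a4d takes the largest share in all mice outside CSA but CFA mouse 72, and 6.10% to 10.1% in CSA.

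In the effect of Ang II within CCN2SMCΔ mice, CSA against CSS, 8 of the 9 tested members were past the limits, as were 10.9% of all tested genes in the higher direction. The log2 fold changes ran from 1.43 (Ms4a4d) to 8.10 (Ms4a4c), with a median of 4.75 against -0.06 over all genes. In CCN2fl/fl mice, CFA against CFS, none of the 9 was past the limits in limma or in voom on recovered fragments, and 0.0273% of all genes were in either direction. The members' median was 0.41 with a range of -0.18 to 1.002, and these comparisons share libraries with those above. Ms4a7 alone did not overlap between CFA and CFS, where 20.2% of all tested genes did not in either direction. Its log2 fold change was 1.002 ± 0.26 (SE). Much of the change in most of the others came from CFA mouse 72. Without it the values for Ms4a4c, Ms4a4a, Ms4a6b, Ms4a8a and Ms4a4b were -0.32, -0.38, -0.16, -0.18 and -0.18. Those of Ms4a6d and Ms4a6c were 0.02 and 0.22, while that of Ms4a4d went from -0.18 to -0.27. CFA mouse 72 was the highest of the 9 mice outside CSA in 7 of the 10 members, a position it held in 16.7% of all tested genes. Relative to the mean of the other CFA mice it carried 11.5 times the level of Ms4a4c, 4.65 times that of Ms4a6d, 4.23 times that of Ms4a8a, 3.71 times that of Ms4a4a and 1.19 times that of Ms4a4d.

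The effect of genotype under saline, CSS against CFS, shares no library with CSA against CFA. Its levels were also in view when the members were chosen, so its p-values are not independent of that choice. No member was called by limma, and 0.0136% of all tested genes were. Of the members 0 had an unadjusted p under 0.05 here, against 1 in CFA against CFS, and 0 were called by voom on recovered fragments. Log2 fold changes ran from -0.69 to 0.44 with a median of -0.34, and the adjusted p-values from 0.918 to 1. Ms4a4a, Ms4a4d and Ms4a8a were lower in every CSS mouse than in any CFS mouse and Ms4a7 was higher, so 4 of 10 members did not overlap. Among all tested genes 20.4% did not overlap in either direction. The log2 fold changes of these 4, in that order, were -0.59 ± 0.53, -0.46 ± 0.31, -0.69 ± 0.49 and 0.44 ± 0.26 (SE). In the interaction, the genotype effect under Ang II minus that under saline, 9 of 9 members were past the limits, against 7.89% of all tested genes in the higher direction. Values ran from 1.61 for Ms4a4d to 7.37 for Ms4a4c. That of Ms4a4d fell under the limits without CSS mouse 56 (1.49), without CFA mouse 74 (1.43) and without CSA mouse 03 (1.198).

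Within CSA, mouse 03 had the highest level in 7 of the 10 members, as in 43.8% of all tested genes. Its levels were 2.36 times the mean of the other CSA mice for Ms4a4d and 1.54 to 1.69 times for Ms4a4a, Ms4a4b, Ms4a4c, Ms4a6d and Ms4a8a. Ms4a6c and Ms4a7 were not higher, at 0.801 and 0.971 times. These ratios within a group of 3 were not tested.

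Leukocyte markers differed by list in whether they rose with the family. In most of these lists some tested genes met the filter only with the CSA libraries, having fewer than 3 other libraries at 1 FPKM, so that the filter favoured a higher level in CSA. The others are counted here. Of 10 recruited monocyte genes, all tested, 5 were of that kind, among them Ly6c2, the Ly6C antigen (6.60). Of the 5 others 4 rose in CSA against CFA, among them Plac8 (5.02, adjusted p = 6.7e-06), and the median log2 fold change of these 5 was 4.10. Of 12 macrophage genes 1 needed the CSA libraries and 10 of the 11 others rose, with a median of 2.86, among them the Fc receptor Fcgr1 (5.24, adjusted p = 1.33e-05) and Aif1 (4.20, adjusted p = 7.2e-06). The 1 other, Mertk, a receptor for apoptotic cells, had -0.73 (adjusted p = 0.0185), and -1.48 in CSA against CSS (adjusted p = 0.000198), both under the fold limit. Of 9 tested genes of resident macrophages, in contrast, 0 rose and 2 fell, Cbr2 (-2.47, adjusted p = 1.01e-06) and Mgl2 (-1.93, adjusted p = 3.33e-05). None of these 9 needed the CSA libraries to be tested, and their median was -0.43. Cd163 had a value of -1.11, Lyve1 -0.87, Timd4 -0.43, Gas6 -0.14, Folr2 -0.01, Pf4 0.12 and Mrc1 0.91. The sum of the recruited monocyte genes was 707.5 to 789 FPKM in CSA and 39.7 to 160 in CFA. That of the resident macrophage genes was 375.6 to 485.7 in CSA and 622 to 674.8 in CFA, with Cbr2 alone at 35.4 ± 3.82 and 197.5 ± 28.3 FPKM (SD, n = 3). Of 9 tested neutrophil genes 6 met the filter only with the CSA libraries, and the 3 others rose, among them S100a8 (5.27, adjusted p = 4.62e-06). Ngp, a granule protein gene and 1 of those 6, was at 9.35 ± 2.74 FPKM in CSA (SD, n = 3) and listed at 0 in every CFA mouse. All 10 tested T and NK cell genes needed the CSA libraries, among them Trac, the T cell receptor α constant chain (5.07), and Il7r (4.74). Of 7 tested dendritic cell genes 4 needed them, among them Ccr7 (4.32) and Itgax (3.66), and of the 3 others 0 were called (median -0.11). No gene of the leukocyte lists was at 0 in all 3 CSA mice. These are limma's tests over all genes, and the part of each cell type in the MS4A levels was not tested.

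The remaining lists were mixed or fell. Of 7 tested mast cell genes 1 was called, Hdc (3.72), which met the filter only with the CSA libraries, and Gata2 had a value of -1.54 (adjusted p = 0.0764, limma), with a list median of -0.40. Of 8 endothelial genes 4 fell and 1 rose (median -1.10), with Vwf at -2.36 (adjusted p = 0.0051, limma) and Ptprb at -2.06 (adjusted p = 0.00782, limma). The endothelial count rested on single mice: 2 rather than 4 fell without CFA mouse 71, CFA mouse 74 or CSA mouse 02, and 0 rather than 1 rose without CFA mouse 74 or CSA mouse 03 or with a pseudocount of 1. CFS mouse 69 had a lower endothelial sum (103.9 FPKM) than the CSA mice (133.8 to 158.9), while the other 8 mice lay above them. Of 8 fibroblast genes 2 fell, Tcf21 (-1.99, adjusted p = 0.0032, limma) and Col15a1 (-1.62, adjusted p = 0.00125, limma), with a median of -0.37. Lum (1.44) and Col1a1 (0.96) lay under the fold limit, with adjusted p-values of 0.000222 and 0.000529 in limma. On the other side of 0, also under the fold limit, lay Dpt (-1.13) and Pi16 (-1.17), with adjusted p-values of 0.000349 and 0.00367 in limma. The sum of the list was higher in CSA, 3590 to 4286 FPKM, than in CFA, 2338 to 2567. Most of that sum was Col1a1, at 2561 to 3262 FPKM in CSA and 1382.7 to 1512.5 in CFA. The smooth muscle genes, led by Myh11 (-4.17, adjusted p = 8.05e-08, limma) and Cnn1 (-3.80, adjusted p = 2.26e-06, limma), had a median of -2.99. None of the lists held a called gene in CSS against CFS or in CFA against CFS. CFA mouse 72 also held the highest sum of its group for macrophage genes (798 FPKM against 374 and 414) and for recruited monocyte genes (160 FPKM against 39.7 and 58.0). Hp alone made up 111.6 FPKM of that monocyte sum in CFA mouse 72, 19.3 in CFA mouse 71 and 38.7 in CFA mouse 74. CFS mouse 70 had a recruited monocyte sum of 175.6 FPKM, of which 158 was Hp, with an MS4A sum of 29.96 FPKM.

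**Figure D5:**
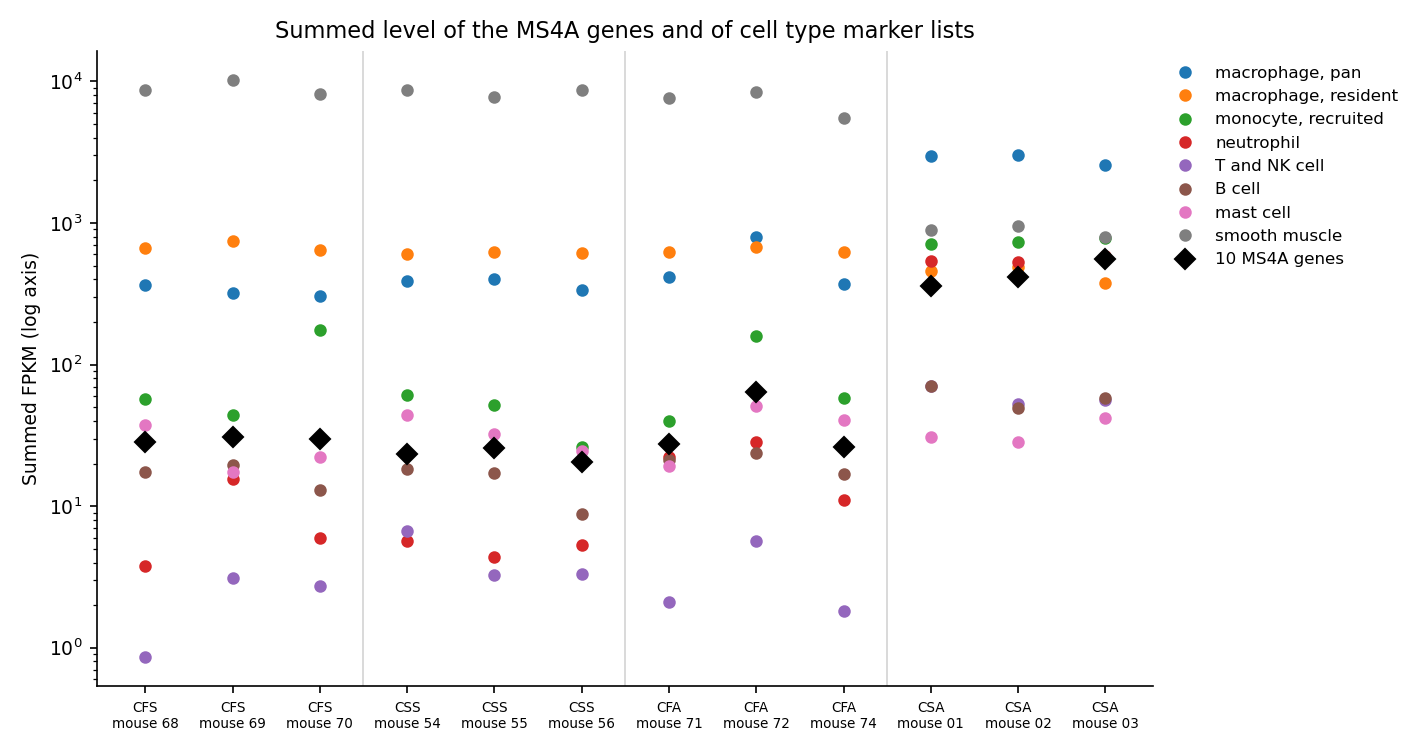
Summed FPKM on a log axis of the 10 MS4A genes (black diamonds) and of 8 marker lists in each of the 12 mice. The MS4A sum is 362 to 560 in CSA and 20.4 to 64.4 elsewhere, while the smooth muscle sum is lowest in the CSA mice.

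Genes whose products have been linked to MS4A proteins were also followed. Of 10 such genes 8 were tested, of which Nlrp3, Trem2 and Cd40 met the filter only with the CSA libraries. Of the 5 others 4 rose in CSA against CFA, and their median log2 fold change was 3.13. Nlrp3, the inflammasome sensor, was at 0.601 ± 0.387 FPKM in CFA and 10.8 ± 1.23 in CSA (SD, n = 3). Trem2 and Cd40 had log2 fold changes of 3.28 and 1.90. Clec7a, which encodes Dectin-1, rose from 2.97 ± 1.78 to 44.4 ± 18.8 FPKM (SD, n = 3; adjusted p = 5.1e-05, limma). The signalling adaptors Fcer1g and Tyrobp rose by 3.76 and 3.13 on the log2 scale and Cd74 by 3.12 (adjusted p of 8.27e-06, 9.6e-05 and 0.000162, limma). Tnfrsf18, which encodes GITR, had 0.81 (adjusted p = 0.124, limma). The related CD20-like proteins outside the cluster, on chromosome 6, rose less than most members. Tmem176a went from 10.05 ± 1.92 to 46.9 ± 5.95 FPKM and Tmem176b from 28.6 ± 3.61 to 94.1 ± 10.3 FPKM (SD, n = 3), with log2 fold changes of 2.22 and 1.72 (adjusted p of 1.14e-05 and 8.66e-06, limma). In neither did CFA mouse 72 stand apart, at 1.297 and 1.10 times the mean of the other CFA mice.

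Over the 12 libraries, the genes most like each member by Pearson r of log2(FPKM + 0.1) were, for Ms4a7, Pld4 (0.997), Tlr1 and Ptpn6 (0.996 each) and, for Ms4a6c, Slc43a2 (0.998), Hmox1 (0.996) and Was (0.994). Ms4a6d was most like Sap30 (0.995), Fcer1g and Fcgr2b (0.993 each), and Ms4a6b was most like Gm5431 (0.996), Prdm1 and Lcn2 (0.994 each). Zbp1, Clec5a and Fcgr1 were nearest to Ms4a4c (0.991 each). Ms4a4a was nearest to Trim30c (0.990), Gpr171 (0.986) and Jaml (0.985), Ms4a4b to Ipcef1 (0.990), Ifnar1 (0.987) and Fyb (0.986) and Ms4a8a to Rsad2, Rpl39 (0.982 each) and Rfwd3 (0.979). Nearest to Ms4a4d were Lsm12 (0.977), Atg5 (0.971) and Eloa (0.970). The 3 CSA libraries stand apart from the other 9 in these members, and all of the genes share libraries and depth. Each r may therefore largely reflect that split, which was not tested.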

How the data were processed

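RNA-Seq of poly(A)-selected RNA was taken from 12 abdominal aortas, 1 library per mouse. The authors deposited FPKM per gene and mouse, and the submitters' processing notes name HISAT2 2.0.5, StringTie 1.3.3b, featureCounts 1.5.0-p3 and mm10 without their roles. With GENCODE M21 exon lengths, 98.1% to 98.5% of values under 100 fragments lay within 0.05 of a whole number of fragments, whose sums were the depths. Only fragment counting error is covered by limits on a 0. Log2(FPKM + 0.1) was fitted in limma 3.58.1 (R 4.3.3), with a coefficient for each group and eBayes allowing a trend and robust variances. The 14676 genes at 1 FPKM or more in at least 3 libraries were tested and p-values adjusted by the Benjamini-Hochberg method over them. A call needed both limits, 0.05 on the adjusted p and 1.5 on the size of the log2 fold change. The test was run on simulated data for CSA against CFA, where 176 of 200 genes changed 8-fold were called, among 14676. Of the unchanged genes 1 was called. Values were drawn independently from a normal distribution around the overall mean of each gene, without outlying mice. Far fewer genes were changed than were called in the real comparison, so the rates need not hold for it.

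The study identified differential genes by DEG-Seq, which needs counts, so limma on log2 FPKM took its place. Python 3.11.15 with Biopython 1.88, matplotlib 3.10.9, numpy 2.4.6 and pandas 2.3.3 made the figures and tables. The members and the gene lists were chosen with earlier results of these data known. Outside the members the text names other Ms4a genes, Tmem176a, Tmem176b, Ccn2, the 2 genes of each list with the largest change in CSA against CFA, and the 3 genes most like each member. Pax5, Ighm, Hp, Lum, Col1a1, Dpt, Pi16, Cd79a, Mertk, the resident macrophage genes under the fold limit, BE692007, AW112010 and the other linked receptors were named after their values were seen. Some values are not reported here. Alternatives were a pseudocount of 1, no filter, median-of-ratios scaling, scaling to library totals, plain eBayes, voom on recovered fragments, no fold limit and leaving out each mouse. The median-of-ratios factor was 1 in every mouse, so that scaling changed nothing in the deposited FPKM. Factors to library totals ran from 0.938 (CFS mouse 69) to 1.12 (CSA mouse 02), so the FPKM were not scaled to plain totals. Separate cultures or batches are not given in the labels; mice are the replicates.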

Additional observations from a re-analysis of the deposited data

Results flagged for a closer look

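Among the tested members, Ms4a14, Tmem176a and Tmem176b, the genotype effect differed between Ang II and saline in 11 genes, by limma's interaction term. The same limits called 7.89% of all tested genes higher in that term. Log2 values of the difference, each with the direction of a larger effect under Ang II, were 7.37 for Ms4a4c, 4.47 for Ms4a7, 4.43 for Ms4a6b, 4.42 for Ms4a6d, 4.08 for Ms4a6c, 4.05 for Ms4a4b, 3.96 for Ms4a4a, 3.32 for Ms4a8a and 1.61 for Ms4a4d. With a pseudocount of 1 those of Ms4a4c, Ms4a4b and Ms4a8a were 5.75, 2.21 and 1.73, and with voom that of Ms4a4b was 4.71. Without CFA mouse 72 those of Ms4a4c, Ms4a6d, Ms4a4a and Ms4a8a were 8.42, 5.15, 4.62 and 3.90. That of Ms4a4a was 3.32 without CFA mouse 71, and that of Ms4a4c was 6.72 without CFA mouse 74. For these members the difference holds the comparison on which they were chosen and is a description. Outside the members it was 3.89 (2.94 with a pseudocount of 1) for Ms4a14, which was tested through the CSA libraries alone, and 1.80 for Tmem176a (adjusted p = 0.00104, limma). Tmem176b, at 1.493 (adjusted p = 0.000545, limma), lay just under the fold limit. It passed the limits under scaling to library totals (1.65) and in 5 of 12 fits that left out 1 mouse. All 3 CSA mice were above every other mouse for each of the 11 genes.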

How the results depend on the processing

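The 10 genes were chosen with their levels known and each group had 3 mice, so the counts describe these libraries. Levels under 20 fragments, as in most mice for Ms4a8a, Ms4a4c and Ms4a4b outside CSA, are imprecise. The fragments of Ms4a4b, and so its values with voom, rest on a length fitted to its FPKM and not taken from the annotation. The number of members past the limits was within 1.5 times its value under every alternative run: 8 to 9 in CSA against CFA, in CSA against CSS and in the interaction, and 0 in CFA against CFS and CSS against CFS. Of 420 values of single genes (the tested members, Ms4a14, Tmem176a and Tmem176b) under settings that left out no mouse, 413 kept their direction and their side of the limits. No filter, median-of-ratios scaling, plain eBayes and no fold limit left each log2 fold change as fitted. Under these settings direction could not change, and median-of-ratios scaling also fixed every call. The tally is therefore no measure of stability for them. Scaling to library totals moved the median log2 fold change of all genes in CSA against CFA from -0.0374 to 0.118. Under it Ms4a6c in CSS against CFS was -0.0004713, and with voom -0.01988, against 0.001 as fitted. The cause was not tested. With a pseudocount of 1 the folds of low genes, taken off the log scale, shrank by over 1.5 times. On the log2 scale, in CSA against CFA Ms4a4b went from 4.27 to 2.27, Ms4a4c from 6.90 to 5.61, Ms4a7 from 4.91 to 4.22 and Ms4a8a from 2.62 to 1.54, and in CSA against CSS Ms4a4c went from 8.10 to 6.21. With voom Ms4a4b was 5.06. Ms4a4d in CSA against CSS came to 1.61 under scaling to library totals and so passed the limits.

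Leaving out each mouse in turn kept 692 of 720 values on their side. In a comparison of 2 groups, leaving out a mouse of another group cannot change the log2 fold change. Many of the 720 values could therefore move only in their adjusted p. In CFA against CFS the range took in both directions for Ms4a4a (-0.378 to 0.927), Ms4a4b (-0.182 to 0.379), Ms4a4c (-0.322 to 1.37), Ms4a4d (-0.269 to 0.003018), Ms4a6b (-0.157 to 0.653) and Ms4a8a (-0.18 to 0.759). In CSS against CFS it did for Ms4a4b (-0.0766 to 0.412), Ms4a6c (-0.145 to 0.205), Ms4a6d (-0.285 to 0.0844) and Ms4a14 (-0.123 to 0.458). With a pseudocount of 1, called genes in CSA against CFA numbered 1 rather than 3 in the B cell list, 2 rather than 4 in the dendritic cell list and 1 rather than 2 falling in the fibroblast list. No paired analysis was possible because the groups share no replicate numbers.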
